A study of Mus musculus with 2 samples.

Results

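Alpha cells are the endocrine cells of the pancreatic islet that make glucagon, and they were examined here in single-cell transcriptomes of dissociated mouse islets. A cell was taken as an alpha cell with glucagon only when Gcg, which encodes proglucagon, made up at least 1% of its UMIs while insulin (Ins1 and Ins2 added), Sst and Ppy were each below 1%. A UMI is a molecular tag that marks 1 captured transcript. Of 1483 cells in all, 356 met the rule. They are called Gcg only cells below, and were compared with 372 insulin only, 58 Sst only and 122 Ppy only cells chosen by the same threshold, and with 151 cells that held both Gcg and Ppy at 1% or more. A further 183 cells had no hormone at 1% and are called hormone-free cells, and 241 held other hormone pairs or triples. Hormone-free cells were used as a reference for free RNA, but many carried markers of other cell types. At least 3 of 8 endothelial markers were seen in 29 of 91 and 35 of 92 of them in libraries 1 and 2. At least 3 of 9 leukocyte markers were seen in 42 and 41. Their levels therefore mix free RNA with expression of their own.

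All cells came from control islets of male C57BL/6J mice aged 8 weeks, with no treatment and no engineered allele named. The islets were hand-picked after collagenase injection and dissociated with trypsin. The RevGel-seq method, in which each cell is tied to a barcoded bead inside a reversible gel, was run on the same number of input cells for each of 2 libraries. The study describes both libraries as technical replicates of one preparation, so their spread holds no difference between animals. Library 1 held 735 cells with 15931154 UMIs and library 2 held 748 cells with 17440292 UMIs. The libraries shared 0 cell barcodes, and a doublet caller marked 8 cells in each, of which 0 were Gcg only cells. The rule itself leaves out cells with a second hormone at 1% or more. This count of 0 therefore does not show that the class is free of doublets.

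Proglucagon is cut by prohormone convertase 2 (Pcsk2) to release glucagon in alpha cells, whereas prohormone convertase 1/3 (Pcsk1) releases GLP-1 in intestinal L cells. Glucagon raises blood glucose by acting on the liver, and its release is held back by somatostatin and insulin and is stimulated by amino acids, adrenaline and vasopressin. Irx1 and Irx2 are homeodomain transcription factors known in alpha cells.

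Promoter windows of 3 genes are shown because they belong to the hormone that chose the cells and to 2 of the marker genes that did not. Each runs from 250 bases before to 50 after the start of the gene, on its own strand, in RefSeq's annotation of GRCm38.p6. Gcg lies at chr2:62483604-62483903 (minus strand), Irx2, a homeodomain factor, at chr13:72628570-72628869 (plus strand), and Slc38a5, a glutamine transporter, at chrX:8271131-8271430 (plus strand). Capitals mark matches to 4 short motifs, and no printed matches overlap: TATAAA, the TATA box, on the gene's strand, and on both strands TAATTA, a homeodomain core, TGTTTAC, a forkhead core, and TGCTGA, a core of the large Maf recognition element.
Gcg: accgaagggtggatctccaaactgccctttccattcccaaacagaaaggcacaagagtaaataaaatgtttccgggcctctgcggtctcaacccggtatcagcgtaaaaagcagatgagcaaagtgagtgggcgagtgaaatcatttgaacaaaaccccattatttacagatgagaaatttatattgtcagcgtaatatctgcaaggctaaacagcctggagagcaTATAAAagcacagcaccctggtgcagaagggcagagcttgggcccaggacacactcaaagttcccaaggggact
Irx2: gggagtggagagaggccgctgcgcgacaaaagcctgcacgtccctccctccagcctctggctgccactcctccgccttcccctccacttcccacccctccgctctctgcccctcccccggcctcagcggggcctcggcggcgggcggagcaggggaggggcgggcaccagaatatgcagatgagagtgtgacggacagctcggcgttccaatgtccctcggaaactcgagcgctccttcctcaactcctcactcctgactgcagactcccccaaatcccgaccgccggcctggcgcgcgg
Slc38a5: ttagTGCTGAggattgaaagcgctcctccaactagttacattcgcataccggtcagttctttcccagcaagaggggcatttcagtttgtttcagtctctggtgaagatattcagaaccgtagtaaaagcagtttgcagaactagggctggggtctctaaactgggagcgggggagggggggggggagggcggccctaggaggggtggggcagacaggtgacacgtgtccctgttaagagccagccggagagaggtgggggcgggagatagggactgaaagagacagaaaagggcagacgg
The Gcg window held 1 TATA box, the Irx2 window held none of the 4 motifs and the Slc38a5 window held 1 Maf core. Over all 32851 windows of this length in the table, TATAAA was found in 8.32%, TAATTA in 5.29%, TGTTTAC in 3.65% and TGCTGA in 19.5%. Of the 20 genes most clearly higher in Gcg only cells, 19 of them named below, 15 had a window, 17 windows in all. TATAAA was in 1 of these 17, TGCTGA in 3, and TAATTA and TGTTTAC in 0. A match is a stretch of letters and not a known binding site.

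Gcg only cells made up 24.8% of library 1 (182 cells, 95% exact Clopper-Pearson interval 21.7% to 28.0%) and 23.3% of library 2 (174 cells, 20.3% to 26.5%), or 24.0% ± 1.06 (SD, n = 2). These intervals cover counting error only. Of the 544 cells with Gcg at 1% or more, 65.4% had no second hormone at that level. Within Gcg only cells, Gcg took a median of 23.8% of all UMIs in library 1 (range 4.74% to 38.2%) and 24.6% in library 2 (range 2.46% to 45.2%), or 24.2% ± 0.555 (SD, n = 2). The quartiles were 20.7% and 26.8% in library 1 and 21.5% and 27.2% in library 2, so most cells lay in a narrow range in both. Shares of Gcg, insulin, Sst and Ppy chose the cells and are given as a description, with no test.

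Between Gcg only and hormone-free cells, the Gcg limit fell in a wide gap. The Gcg only cells just inside it had 2.46%, 4.74% and 5.12% Gcg, and the hormone-free cells just outside it had 0.455%, 0.308% and 0.250%. Cells with another hormone came closer to the limit. Gcg reached 0.848% in insulin only and 0.968% in Ppy only cells, and Gcg and Ppy cells started at 1.19%. Between Gcg only and Gcg and Ppy cells, the Ppy limit fell in a continuum. The closest cells inside had 0.992%, 0.991% and 0.957% Ppy and the closest outside had 1.00%, 1.00% and 1.04%. Ppy at 0.5% or more was found in 36 Gcg only cells, and 39 of the Gcg and Ppy cells had less than 2%. Few cells lay near the limits of insulin (4 Gcg only cells at 0.5% or more) and Sst (2 cells).

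**Figure D1:**
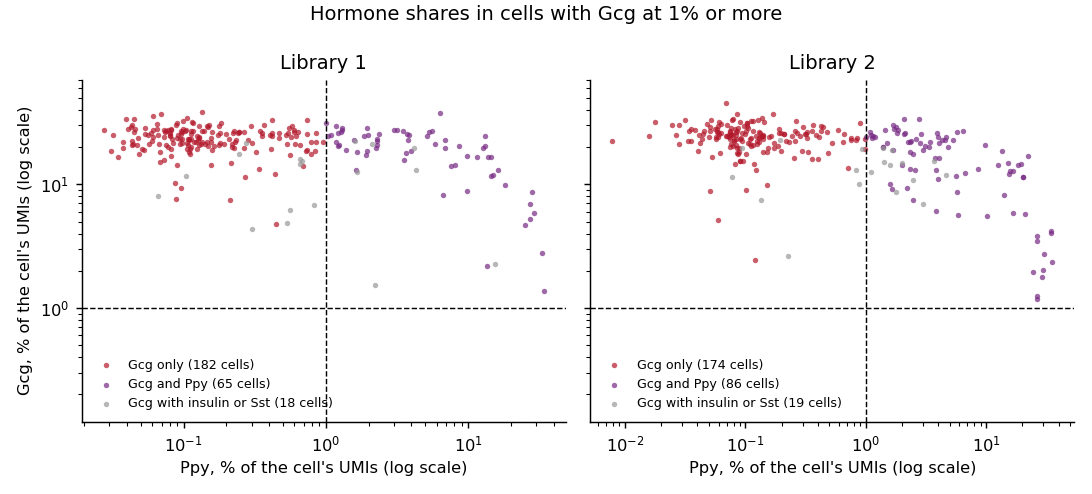
Each point is a cell with Gcg at 1% or more of its UMIs, plotted by its Ppy share (x axis, %, log scale) and Gcg share (y axis, %, log scale) in each library, with the 1% limits dashed. Gcg only cells (182 and 174) sit well above the Gcg limit, while cells lie on both sides of the Ppy limit without a gap.

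Insulin and Sst shares in Gcg only cells were near those of hormone-free cells. The median insulin share was 0.187% and 0.167% in libraries 1 and 2, against 0.190% and 0.162% in hormone-free cells. The median Sst share was 0.0153% and 0.0109%, against 0.0191% and 0.0110% in hormone-free cells. The median Ppy share was 0.111% ± 0.0125 (SD, n = 2) against 0.0654% ± 0.00449 in hormone-free cells, and was higher in both libraries. Median depth was 16414 and 19534 UMIs in Gcg only cells and 13195 and 15015 in hormone-free cells. Thinned to 4000 UMIs each, Gcg only cells showed 1832 and 1818 genes at the median, or 1825 ± 9.90 (SD, n = 2). The same value was 1523 ± 37.1 in insulin only, 1643 ± 21.6 in Ppy only and 2176 ± 6.36 in Sst only cells. Both libraries of Gcg only cells lay above both of insulin only and Ppy only cells and below both of Sst only cells. The 4000 UMIs included the hormone genes that chose the cells. The median share of the own hormone was 40.1% in insulin only, 36.4% in Ppy only, 24.2% in Gcg only and 9.09% in Sst only cells. That order is the reverse of the gene numbers, and numbers without the hormone genes were not taken. No cell was below 4000 UMIs. These differences were not tested.

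Genes outside the rule were compared on counts summed over the cells of a class in each library, 10 sums in all. Levels are given as CPM, the UMIs of a gene per 1000000 UMIs of the class without the 5 hormone genes. Differences are on the log2 scale as Gcg only minus the other class, with the SE of the fit, and a call is an adjusted p under 0.05 in edgeR's quasi-likelihood test with Benjamini-Hochberg adjustment over all 13476 genes tested. The alpha label was set beside markers that the rule did not use. The gene lists were chosen with earlier results of these data known, so the markers describe the class and are not an independent check. Together, Ttr, Irx1, Irx2 and Slc38a5 reached 45196 ± 1093 CPM (SD, n = 2) in Gcg only cells and 488 ± 3.03 CPM in hormone-free cells. Most of this sum was Ttr. Gcg and Ppy cells had 22485 ± 351 CPM of the same sum. At least 3 of the 4 were seen in 162 of 182 and 160 of 174 Gcg only cells, against 1 of 91 and 1 of 92 hormone-free cells. All 4 were seen in 83 and 73 Gcg only cells.

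Gcg only cells were higher than each of the 3 other single-hormone classes in 387 genes (2.87% of genes tested) and lower than each in 277 (2.06%). The comparisons share the Gcg only sums. Against insulin only cells, 17.5% of genes were called higher and 18.0% lower. Against Sst only cells the shares were 8.34% and 8.90%, and against Ppy only cells 8.46% and 8.82%. Against Gcg and Ppy cells they were 0.126% (17 genes) and 0.252% (34 genes). Sums of Sst only cells rest on 35 and 23 cells and those of insulin only cells on 182 and 190, so the counts of calls differ in precision. With 23 cells in every sum, 1601, 1066, 583 and 20 genes were called in these 4 comparisons, in place of 4782, 2323, 2329 and 51.

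**Figure D2:**
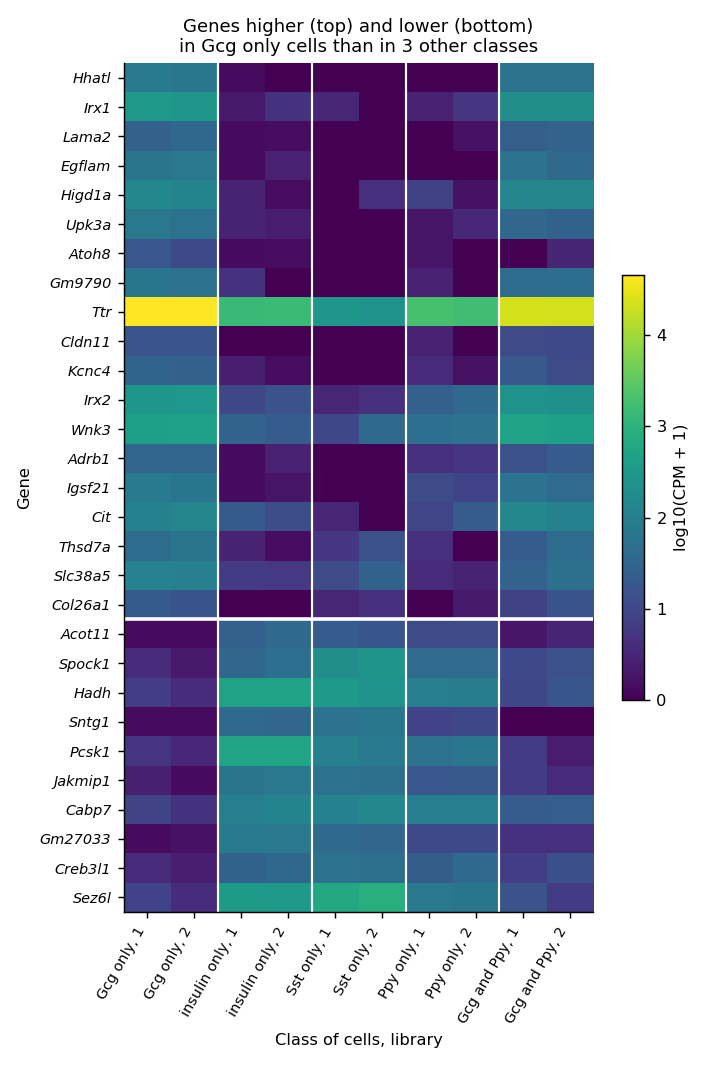
Levels as log10(CPM + 1) of 19 of the 20 genes ranked first as higher (above the white line) and the 10 ranked first as lower (below it) in Gcg only cells than in 3 other classes, by class and library. Ttr is at 44487 CPM in Gcg only cells against 1474 in insulin only cells.

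Of the 20 genes higher in Gcg only cells than in all 3 classes with the largest smallest difference, 19 are reported, which were Hhatl, Irx1, Lama2, Egflam, Higd1a, Upk3a, Atoh8, Gm9790, Ttr, Cldn11, Kcnc4, Irx2, Wnk3, Adrb1, Igsf21, Cit, Thsd7a, Slc38a5 and Col26a1. They include both Irx1 and Irx2. The first of them, Hhatl (chr9:121784016-121792507 in GENCODE M21 on GRCm38), which encodes a relative of hedgehog acyltransferase, had 82.3 and 66.9 CPM in Gcg only cells. It had 0.369 and 0 CPM in insulin only cells and 0 in all 4 sums of Sst only and Ppy only cells. Taking 3 counts over the class as the limit of a count of 0, it was at least 18.7-fold higher than in Sst only and at least 71.1-fold higher than in Ppy only cells. Gcg and Ppy cells had 53.8 and 52.9 CPM of it.

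Genes of the cell surface and matrix were among the 20. Egflam, an extracellular matrix protein that binds dystroglycan, had 60.6 and 69.4 CPM in Gcg only cells and at most 1.68 CPM in any sum of the 3 other classes. Lama2, a laminin chain, had 25.9 and 34.7 CPM there and at most 0.586 in those sums, and it overlaps Gm36962 on the same strand. Cldn11, a tight junction claudin, had 16.0 and 15.6 CPM in Gcg only cells was at 0 in all sums of insulin only and Sst only cells, and had 1.72 and 0 CPM in Ppy only cells. Upk3a, a membrane protein of urothelium, had 68.2 and 54.9 CPM, and 24.0% of its UMIs came from 3 cells. Higd1a, a protein of the inner mitochondrial membrane, had 147 and 120 CPM in Gcg only cells and at most 6.88 elsewhere among the 3. Gcg and Ppy cells had 131 and 128 CPM of Higd1a, 25.1 and 28.5 of Lama2, 55.6 and 38.9 of Egflam and 33.2 and 26.4 of Upk3a. None of these was called between Gcg only and Gcg and Ppy cells, with Upk3a closest to the threshold (1.06 ± 0.24, adjusted p = 0.052). Hormone-free cells had 21.4 and 32.4 CPM of Higd1a, 26.4 and 8.80 of Egflam, 6.92 and 2.32 of Lama2, and 0 of Upk3a.

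The 10 genes lower than in all 3 classes by the same ranking were Acot11, Spock1, Hadh, Sntg1, Pcsk1, Jakmip1, Cabp7, Gm27033, Creb3l1 and Sez6l. Hadh, which encodes a dehydrogenase of short-chain fatty acid oxidation, had 6.09 and 2.83 CPM in Gcg only cells. It had 481 and 503 CPM in insulin only, 319 and 235 in Sst only and 96.3 and 92.1 in Ppy only cells. The sums did not overlap, and the log2 differences were -6.82 ± 0.20, -5.88 ± 0.26 and -4.38 ± 0.26 (adjusted p at most 1.8e-12). Sez6l, a substrate of the protease BACE2, had 7.62 and 2.83 CPM in Gcg only cells and at least 63.3 CPM in every sum of the 3 other classes.

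Transcription factors known in alpha cells were tested for 15 of 16 list members. Of these, 9 were higher and 3 lower than in insulin only cells, 8 and 3 against Sst only, and 8 and 1 against Ppy only cells. Over all genes tested the shares were 17.5% and 18.0%, 8.34% and 8.90%, and 8.46% and 8.82% in these comparisons. Median differences of the members were 0.51, 1.03 and 0.30, beside 0.02, 0.04 and 0.00 over all genes tested. Irx1, Irx2 and Pou3f4 were among those higher than in all 3 classes. Irx1 had 319 and 290 CPM in Gcg only cells and at most 4.10 CPM in any sum of the 3 classes. Irx2 had 286 and 301 CPM in Gcg only cells, and 25.8 and 38.1 in Ppy only cells. Its differences were 4.58 ± 0.18 against insulin only, 6.85 ± 0.40 against Sst only and 3.17 ± 0.17 against Ppy only cells. A UMI of Irx2 was found in 86.3% and 94.8% of Gcg only cells and in 4.40% and 2.17% of hormone-free cells.

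Other factors of the endocrine lineage differed from class to class. Rfx6, which acts in islet development, was 1.61 ± 0.18 higher than in Ppy only cells (adjusted p = 1.5e-07), and its differences from insulin only (0.25 ± 0.14) and Sst only cells (-0.27 ± 0.18) were not called. Pax6, an activator of the Gcg gene, was lower than in insulin only cells (-0.79 ± 0.10, adjusted p = 2.9e-07) and in Sst only cells (-0.59 ± 0.11, adjusted p = 0.00041), and differed by 0.01 ± 0.10 from Ppy only cells, which was not called. Neurod1 was higher than in Sst only (1.15 ± 0.14) and Ppy only cells (0.80 ± 0.10) and lower than in insulin only cells (-0.31 ± 0.09, adjusted p = 0.0095).

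Genes of prohormone processing and of secretory granules went in both directions. Of 15, 6 were higher and 8 lower than in insulin only, 6 and 4 against Sst only, and 5 and 4 against Ppy only cells. The median differences were -0.44, 0.04 and 0.14. Beside these counts, the shares over all genes tested were 17.5% and 18.0%, 8.34% and 8.90%, and 8.46% and 8.82%. Pcsk2, Pcsk1n, Cpe and Vgf were higher than in all 3, and Pcsk1, Rab3b, Scg2 and Chgb lower than in all 3. Pcsk2 had 10326 and 10301 CPM in Gcg only cells, 4885 and 4983 in insulin only, 5245 and 5122 in Sst only and 6870 and 6677 in Ppy only cells. Its differences were 1.02 ± 0.08 against insulin only and 0.62 ± 0.08 against Ppy only cells (adjusted p at most 3.7e-06).

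Pcsk1, the other convertase, had 4.19 and 2.48 CPM in Gcg only cells and 575 and 568 CPM in insulin only cells. Sst only cells had 108 and 77.1 CPM of it and Ppy only cells 55.0 and 67.4. Differences were -7.45 ± 0.20, -4.71 ± 0.35 and -4.19 ± 0.29 (adjusted p at most 8.9e-11). In both libraries Pcsk2 was thus higher, and Pcsk1 lower, in Gcg only cells than in any of the 3 classes. Pcsk1n, which encodes the inhibitor proSAAS of prohormone convertase 1/3, was higher than in each class, at 2284 and 2051 CPM against at most 1200 CPM in any of the other sums.

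Among granins, acidic proteins packed into secretory granules, Chga was the one whose direction depended on the class. It had 14293 and 13777 CPM in Gcg only cells. That was below the 32708 and 30408 of insulin only cells (-1.21 ± 0.15, adjusted p = 2.6e-07) and above the 6241 and 5213 of Sst only cells (1.39 ± 0.15, adjusted p = 1.1e-07). Ppy only cells had 10007 and 5662 (0.85 ± 0.15, adjusted p = 0.00013). Scg2 had 1706 and 1665 CPM in Gcg only cells against at least 4522 in every sum of the 3 classes. Sytl4, a granule protein also called granuphilin, had 2.29 and 0.708 CPM in Gcg only and 530 and 545 CPM in insulin only cells, and was not called against the other classes.

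**Figure D3:**
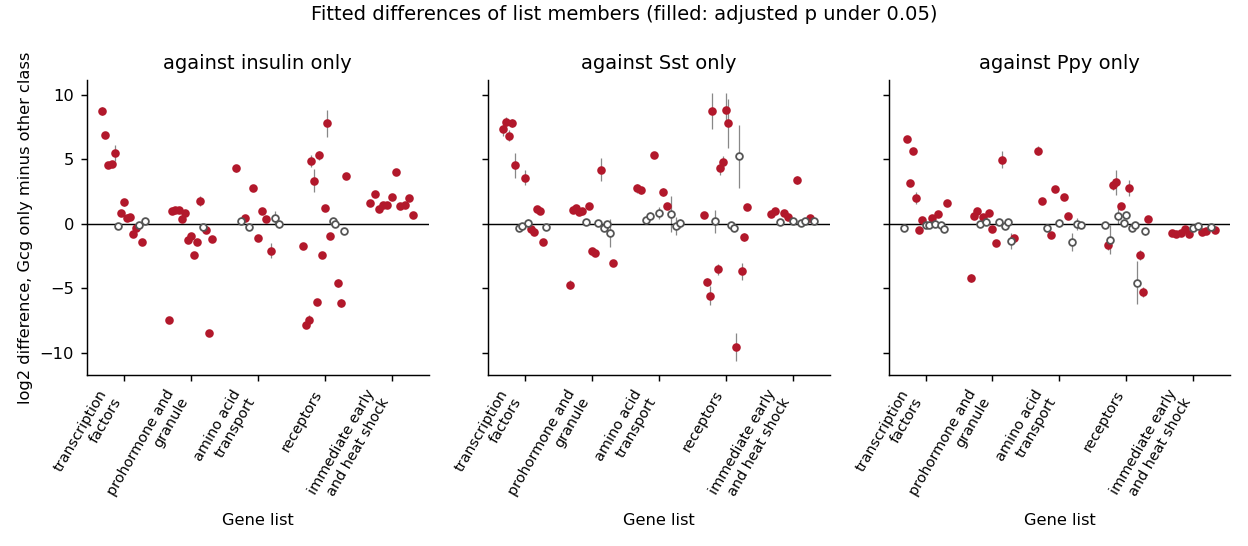
Fitted log2 differences (y axis, Gcg only minus the other class, bars are SE of the fit) of the tested members of 5 gene lists against insulin only, Sst only and Ppy only cells. Filled points have an adjusted p under 0.05. The 11 immediate early and heat shock genes lie above 0 against insulin only cells and below 0 against Ppy only cells, where 8 are filled.

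Amino acid transport was tested with 11 of 16 list members. Of these, 5 were higher and 2 lower than in insulin only, 5 and 0 against Sst only, and 5 and 1 against Ppy only cells, with medians of 0.36, 0.85 and 0.06. The shares called over all genes tested were 17.5% and 18.0%, 8.34% and 8.90%, and 8.46% and 8.82%. Slc38a5, Slc7a2, Slc7a8 and Slc3a2 were higher than in all 3. Slc7a2, which takes up arginine and lysine, had 1392 and 1394 CPM in Gcg only cells, 189 and 203 in insulin only, 28.6 and 50.3 in Sst only and 220 and 202 in Ppy only cells. Its differences were 2.79 ± 0.10, 5.32 ± 0.18 and 2.74 ± 0.11 (adjusted p at most 2.5e-16). Slc38a5, which carries glutamine, had 117 and 104 CPM in Gcg only cells and at most 26.8 in any sum of the 3 classes. Slc7a8 is a light chain of an exchanger of neutral amino acids and Slc3a2 its heavy chain. Slc7a8 had 105 and 102 CPM in Gcg only cells, and Slc3a2 144 and 172.

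Receptors that act on glucagon release were tested for 17 of 20 members. Of these, 6 were higher and 8 lower than in insulin only, 7 and 6 against Sst only, and 5 and 3 against Ppy only cells, with medians of -0.54, 0.21 and -0.08. All genes tested had shares of 17.5% and 18.0%, 8.34% and 8.90%, and 8.46% and 8.82%. Adrb1, Avpr1b, Sstr2 and Gria2 were higher than in all 3, and Glp1r and Chrm3 lower than in all 3. Adrb1, a receptor of adrenaline and noradrenaline, had 31.6 and 31.5 CPM in Gcg only cells. It had 0.369 and 1.68 CPM in insulin only, 0 in both Sst only sums and 3.44 and 4.10 in Ppy only cells. Avpr1b, a vasopressin receptor, had 69.7 and 82.9 CPM in Gcg only, at most 10.1 in insulin only and Sst only, and 30.9 and 27.6 in Ppy only cells. Its differences were 5.33 ± 0.34, 4.33 ± 0.54 and 1.41 ± 0.23 (adjusted p at most 6.1e-05).

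Sstr2, the somatostatin receptor of alpha cells, had 14.9 and 18.1 CPM in Gcg only cells and 0 in all sums of insulin only and Sst only cells. It was at least 28.0-fold and at least 4.15-fold higher than in those. Gria2, a subunit of AMPA glutamate receptors, had 980 and 1017 CPM in Gcg only cells, 77.5 and 67.0 in insulin only, 376 and 516 in Sst only and 754 and 804 in Ppy only cells, and no sums overlapped. Chrm3, a muscarinic receptor, overlaps Gm47411 on the same strand. Glp1r, the receptor of GLP-1, had 7.24 and 5.67 CPM in Gcg only cells and 1472 and 1418 CPM in insulin only cells (-7.84 ± 0.20, adjusted p = 1.9e-20). The glucagon receptor gene Gcgr had 1.14 and 0 CPM in Gcg only and 98.2 and 115 CPM in insulin only cells. Gipr, the receptor of GIP, had 121 and 104 CPM in Gcg only cells. That was lower than in insulin only cells (-1.69 ± 0.12, adjusted p = 7.2e-12), higher than in Sst only cells (0.67 ± 0.21, adjusted p = 0.028) and not called against Ppy only cells (-0.10 ± 0.14).

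Genes of electrical activity were tested for all 20 members, with 7 higher and 4 lower than in insulin only, 4 and 5 against Sst only, and 3 and 8 against Ppy only cells (medians 0.23, -0.33 and 0.01). Over all genes tested the shares were 17.5% and 18.0%, 8.34% and 8.90%, and 8.46% and 8.82%. Some of these counts are near those shares, so the counts only describe the list. The potassium leak channel gene Kcnk3 had 246 and 261 CPM in Gcg only cells, 8.49 and 8.42 in insulin only and 241 and 235 in Ppy only cells. It was 4.85 ± 0.18 higher than in insulin only cells (adjusted p = 1e-17) and not called against Ppy only cells (0.11 ± 0.12). Scn3a, a sodium channel subunit, had 181 and 191 CPM in Gcg only cells against 28.0 and 48.4 in insulin only cells (2.25 ± 0.17, adjusted p = 5e-11). Scn9a, another sodium channel subunit, was lower than in all 3 classes, at 101 and 87.5 CPM against at least 130 in every sum of the 3. Its difference from insulin only cells was -0.51 ± 0.14, and 0.30 and not called with equal numbers of cells, and it overlaps Gm13627 on the same strand. Kcnj11 and Abcc8, which encode the ATP-sensitive potassium channel, had 179 and 165 CPM and 810 and 793 CPM. Kcnj11 was not called against insulin only cells (0.10 ± 0.11) and Abcc8 was higher (0.48 ± 0.09, adjusted p = 9.5e-05).

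Among 17 tested genes of glucose entry and glycolysis, 4 were higher and 7 lower than in insulin only, 3 and 2 against Sst only, and 2 and 3 against Ppy only cells (medians -0.28, -0.31 and 0.18). The shares over all genes tested were 17.5% and 18.0%, 8.34% and 8.90%, and 8.46% and 8.82%. Several counts are near those shares and are not read as a result about the list. Pdk4, a kinase that inactivates pyruvate dehydrogenase, was higher than in all 3. It had 144 and 141 CPM in Gcg only cells, 0.369 and 0.842 in insulin only, 0 in both Sst only sums and 30.1 and 36.9 in Ppy only cells. The glucose transporter gene Slc2a2 had 5.71 and 2.48 CPM in Gcg only cells and 653 and 739 in insulin only cells (-7.45 ± 0.21, adjusted p = 8.4e-20).

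Secreted and surface products named for alpha cells were tested for 10 of 11 members, with 7 higher and 2 lower than in insulin only, 6 and 0 against Sst only, and 5 and 0 against Ppy only cells (medians 3.04, 0.65 and 0.54). All genes tested had shares of 17.5% and 18.0%, 8.34% and 8.90%, and 8.46% and 8.82%. Ttr, which encodes the thyroxine carrier transthyretin, had 43701 and 45273 CPM in Gcg only cells, 1444 and 1503 in insulin only, 290 and 248 in Sst only and 2002 and 1713 in Ppy only cells. Its differences were 4.87 ± 0.10, 7.46 ± 0.13 and 4.60 ± 0.10 (adjusted p at most 2.5e-21). Hormone-free cells had 478 CPM of Ttr at the mean. Gpx3, a secreted glutathione peroxidase, was higher than in all 3 at a mean of 2604 ± 29.3 CPM (SD, n = 2), and Edn3, which encodes endothelin 3, had 384 and 329 CPM against at most 91.1 in any sum of the 3 classes. Gc, the vitamin D binding protein, had a mean of 389 ± 2.56 CPM, higher than in insulin only cells (3.08 ± 0.12, adjusted p = 5.1e-17) and not called against Ppy only cells (-0.23 ± 0.10, adjusted p = 0.11).

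Of 14 beta cell markers outside the rule, 13 were lower in Gcg only than in insulin only cells and 0 higher, with a median of -6.63. The exception was Slc30a8, the zinc transporter of granules, with 1270 and 1319 CPM in Gcg only and 1305 and 1282 CPM in insulin only cells (-0.04 ± 0.12, adjusted p = 0.82). Sst only and Ppy only cells had at most 64.5 CPM of it. Of the 14 beta cell markers, 3 were higher and 5 lower than in Sst only cells, and 2 and 6 against Ppy only cells. Over all genes tested the shares higher and lower were 17.5% and 18.0%, 8.34% and 8.90%, and 8.46% and 8.82% against the 3 classes. Mafa, the Maf factor of beta cells, had 1.52 and 3.54 CPM in Gcg only and 1162 and 1216 CPM in insulin only cells. Iapp, which encodes amylin, had 633 and 489 CPM in Gcg only cells and 1186 and 619 CPM in hormone-free cells. After thinning, a UMI of Iapp was found in 59.3% and 56.9% of Gcg only cells and in 46.2% and 42.4% of hormone-free cells, so the sums and the shares of cells differ in order. Of 4 delta markers tested, 4 were lower than in Sst only cells. Rbp4, the retinol carrier, had 1237 and 1204 CPM in Gcg only cells, 6355 and 6041 in Sst only, 228 and 313 in insulin only and 345 and 345 in Ppy only cells. Both tested gamma markers, Pyy and Etv1, were lower than in Ppy only and higher than in insulin only cells. Etv1, an ETS factor, had 590 and 564 CPM in Gcg only, 32.8 and 30.7 in insulin only and a mean of 746 ± 22.8 CPM (SD, n = 2) in Ppy only cells.

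Immediate early and heat shock genes, which respond to stimulation and to cell handling, differed between classes. All 11 were higher in Gcg only than in insulin only cells (median 1.48), 6 were higher and 0 lower than in Sst only cells (0.48), and 0 were higher and 8 lower than in Ppy only cells (-0.52). Over all genes tested the shares higher and lower were 17.5% and 18.0%, 8.34% and 8.90%, and 8.46% and 8.82%. Fos had 2604 and 2278 CPM in Gcg only cells, 874 and 691 in insulin only, 1461 and 1690 in Sst only and 4138 and 3917 in Ppy only cells, with no overlap of the sums. Atf3, a stress-induced factor, had 767 and 814 CPM in Gcg only and 28.8 and 68.6 CPM in insulin only cells (adjusted p = 4.7e-13). Dnajb1, a heat shock cochaperone, had 2027 and 1968 CPM against 423 and 518 in insulin only cells. Median depth was 29562 ± 1100 UMIs (SD, n = 2) in Ppy only cells, 17974 ± 2207 in Gcg only cells and 18406 ± 1748 in insulin only cells. Mitochondrial genes took, at the median, 0.770% and 0.756% of UMIs in Ppy only and 0.574% and 0.582% in Gcg only cells. The values were 0.509% and 0.390% in Sst only and 0.371% and 0.326% in insulin only cells. These shares are of all UMIs, hormone genes included, and CPM leaves the hormone genes out. The order of classes can therefore not be compared directly with that of Fos. The part of cell handling, mitochondrial share and depth in these levels was not tested.

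Against Gcg and Ppy cells few genes were called, 51 of 13476, and the rule split both classes at the Ppy limit. The 5 with the largest differences above were Nrcam, Slc38a5, Specc1, Olfm1 and Cbs, and the 5 below were Mdga2, St8sia6, Tspan8, Ntm and Pyy. Ttr had 43701 and 45273 CPM in Gcg only and 22265 and 21774 CPM in Gcg and Ppy cells (1.02 ± 0.09, adjusted p = 8.8e-08). Irx1 had 319 and 290 against 202 and 196 CPM (0.62 ± 0.13, adjusted p = 0.026). Irx2 was not called (0.38 ± 0.13, adjusted p = 0.25).

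Slc38a5 was 1.45 ± 0.21 higher (adjusted p = 0.00058), at 117 and 104 against 28.7 and 50.8 CPM, and Slc7a2 0.51 ± 0.09 higher (adjusted p = 0.0057). On the other side, Pyy, which encodes peptide YY, had 6282 and 5981 CPM in Gcg only and 28943 and 24341 CPM in Gcg and Ppy cells (-2.12 ± 0.11, adjusted p = 2.6e-12). Ppy only cells had 53889 and 41295 CPM of Pyy. Tspan8, a tetraspanin, had 19.0 and 16.6 against 134 and 156 CPM (-3.03 ± 0.16, adjusted p = 2.6e-12), and Ppy only cells had 748 and 702. Mdga2, an adhesion protein, had 1.14 and 1.77 against 25.1 and 29.2 CPM (-4.15 ± 0.43, adjusted p = 2.3e-06), and Ppy only cells had 42.1 and 55.1. For these 3 genes both libraries of Gcg and Ppy cells lay between those of Gcg only and Ppy only cells. No member of the receptor, electrical activity, glucose or immediate early lists was called in this comparison. Over all genes tested only 0.126% were called higher and 0.252% lower, so this absence is not read as a result about the lists. With DESeq2 the split of calls was 8 higher and 40 lower, in place of 17 and 34.

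Gcg only cells differed among themselves in how much of their RNA was Gcg. Cells were put into 5 bands of Gcg share, below 15% (12 and 9 cells in libraries 1 and 2), 15% to 20% (27 and 25), 20% to 25% (64 and 59), 25% to 30% (61 and 57) and 30% or more (18 and 24). The lowest band holds under 20 cells in each library, as does the highest in library 1. The bands and the genes shown were chosen with their values in view, and Gcg chose the cells, so this is a description with no test. Ttr was at 13495 and 23279 CPM in the lowest band and at 71938 and 55236 CPM in the highest. Gpx3 went from 1488 and 1166 to 3649 and 3520 CPM, and Chga from 11103 and 8903 to 15687 and 15475 CPM. Scg2 was at 1327 and 780 CPM in the lowest band and 2127 and 2332 CPM in the highest.

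The levels of the transcription factor genes Irx1 and Irx2 were also taken by band. Irx2 was at 232 and 290 CPM in the lowest and 251 and 290 CPM in the highest band, and Irx1 was at 202 and 386 CPM in the lowest and 285 and 264 CPM in the highest, in opposite directions in the libraries. Of the 11 immediate early and heat shock genes, 4 are shown by band, and the others are not, so these 4 do not stand for the list. Fos, Ier2, Atf3 and Hspa1b were each lower in the highest than in the lowest band in both libraries. Fos had 3624 and 3156 against 2382 and 2017 CPM. Atf3 had 1392 and 973 CPM in the lowest and 557 and 578 CPM in the highest band, Ier2 910 and 542 against 289 and 266 CPM, and Hspa1b 1482 and 1173 against 651 and 796 CPM. Median depth was 13647 and 13509 UMIs in the lowest band and 15095 and 24164 UMIs in the highest.

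**Figure D4:**
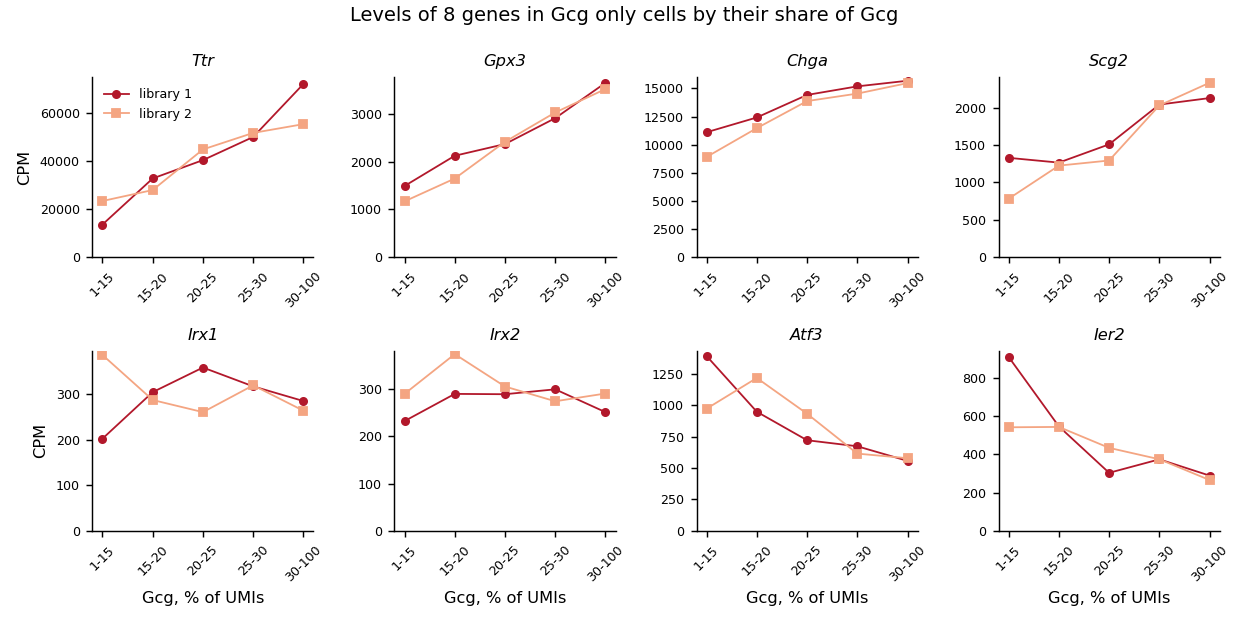
CPM (y axis, per 1000000 UMIs without the hormone genes) of 8 genes in Gcg only cells by band of Gcg share (x axis, % of UMIs), for both libraries. Ttr, Gpx3, Chga and Scg2 are higher in the highest than in the lowest band in both libraries, Irx1 is higher in library 1 and lower in library 2, Irx2 is at 290 CPM in both of these bands of library 2, and Atf3 and Ier2 are lower in the highest band.

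Cell to cell spread was measured for 3086 genes as the squared coefficient of variation of UMIs scaled to a common depth, after the part expected from counting was taken off, ranked on the smaller of the library values. Its median was 0.331 in library 1 and 0.321 in library 2, and this ranking was made after the data were seen. Cdkn1a, the cell cycle inhibitor p21, had 5.70 and 5.86, with a UMI in 33.0% and 25.9% of cells. Snhg11, a long non-coding RNA, had 3.60 and 4.69, with a median of 0 and a 90th percentile of 19.0 and 19.4 scaled UMIs. The first 30 genes also held Iapp (2.88 and 3.09), the immediate early genes Nr4a1, Nr4a2 and Npas4, and 1 of the 4 markers, Slc38a5 (2.14 and 2.01).

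Summed markers of other cell types were compared with hormone-free cells. The summed 9 leukocyte markers had 14.9 and 17.0 CPM against 3657 and 3627 in hormone-free cells, and the 7 acinar markers 6.48 and 5.31 CPM against 6.29 and 2.32. The 4 Schwann markers had 56.8 and 57.0 CPM against 5.03 and 45.9 in hormone-free cells, and the 6 ductal markers 229 and 241 against 1736 and 630. Of 6 leukocyte markers tested, 6 were lower than in insulin only, 2 than in Sst only and 4 than in Ppy only cells, with 0 higher. Over all genes tested the shares higher and lower were 17.5% and 18.0%, 8.34% and 8.90%, and 8.46% and 8.82%. The summed 9 markers had 126 and 188 CPM in insulin only, 167 and 6.70 in Sst only and 79.9 and 308 in Ppy only cells. Whether a few cells of those classes held these UMIs was not tested. The 8 endothelial markers had 72.8 and 258 CPM, against 7072 and 8949 CPM in hormone-free cells, and at least 3 of them were seen in 3 and 2 Gcg only cells. Of these markers, Kdr, Plvap and Flt1 were called higher than in Ppy only cells (2.62 ± 0.87, 2.77 ± 0.79 and 3.60 ± 1.05). Without those 5 cells the differences were -0.49, -0.03 and 0.19, and they were not called (adjusted p at least 0.81), while Esam was called lower (-1.08 ± 0.34). Of 3 ductal markers tested, 1, 0 and 0 were higher and 1, 1 and 2 lower against the 3 classes, and of 2 Schwann markers 1, 0 and 1 were higher and 0, 1 and 0 lower. Counts over so few genes are not read as a result about either list. Neither acinar nor erythroid markers passed the filter on low counts. At least 3 of 8 proliferation genes were seen in 0 Gcg only cells of either library, which allows a share of up to 1.65% of 182 and 1.72% of 174 cells. This limit is for cells in which 3 of these genes were detected, not for cells that express them. The 6 stellate markers had 46.5 and 33.3 CPM against 1933 and 482 in hormone-free cells, and most of it in Gcg only cells was Col1a2, a collagen chain, at 41.5 and 30.1 CPM with a UMI in 23.1% of the cells of library 1. Col1a2 was higher than in insulin only cells (5.34 ± 0.47, adjusted p = 9.8e-10), and at 64.5 and 39.3 CPM in Ppy only cells (-0.49 ± 0.24, not called).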

How the data were processed

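Transcripts of control mouse islets were measured by RevGel-seq in 2 libraries. Per the labels and the study's methods, the authors kept barcodes above a depth knee with UMI-tools, aligned reads to GRCm38 exons, removed duplicate UMIs and deposited 1 table of raw counts per gene and cell for each library. Intronic reads are not in these counts. All 1483 cells were used. Members, gene lists and tests were chosen with earlier results of these data known. Classes were set at 1% of UMIs per hormone. Counts were summed per class and library, the 5 hormone genes were left out of counts and library sizes, and all 10 sums (298300 to 2823605 UMIs) entered a quasi-likelihood fit with 5 residual degrees of freedom (edgeR 4.0.16, R 4.3.3), after TMM scaling and filterByExpr. Adjusted p-values are Benjamini-Hochberg with a threshold of 0.05. Values over libraries are mean ± SD, n = 2. The libraries are technical replicates, so p-values measure only the spread between them. Cells were never replicates.

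Named genes were the list members, those with a UMI in at least 10% of cells called in the same direction against 3 classes (the first 20 higher and 10 lower, ranked by the smallest difference), and the 5 largest differences each way per comparison. Genes outside these are named where their values were seen first (the cell to cell spread). Doublets were called with Scrublet in scanpy 1.11.5 and kept. DESeq2 1.42.0, other scaling, no filter, a library block, equal cell numbers, thinning, other thresholds and cells left out were tried as alternatives. The fit was tested on simulated data. Of 33038 identifiers, 32971 were found in GENCODE M21. Sequences are from RefSeq on GRCm38.p6. The number of counts taken as the limit of a count of 0 was 3. Same-numbered sums correlated between -0.07 and 0.13 across genes, so the library number does not pair them in the data and the block was kept as an alternative. The results of some genes that the rule names are not reported here.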

Additional observations from a re-analysis of the deposited data

How the results depend on the processing

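Depth, the Ppy limit and the small Sst only class limit these results, and no alternative stands for a second animal. The share of Gcg only cells was 21.4%, 27.5% and 31.5% with hormone limits of 0.5%, 2% and 5%, and 23.3% to 24.8% leaving out a library. The median Gcg share was 23.6% at the 5% limit and 23.8% to 24.6% leaving out a library. Median UMIs were 16414 to 19534 and thinned genes 1818 to 1832 leaving out a library. The genes per alpha cell after thinning were 1066 at 2000 UMIs and 2939 at 8000 UMIs, and 4640 without thinning. Against insulin only, Sst only, Ppy only and Gcg and Ppy cells in that order, calls were 1601, 1066, 583 and 20 with equal numbers of cells, and 2115, 926, 654 and 23 with cells thinned. Both tested fewer genes (8693 and 6663). DESeq2 called 3213, 1740, 1371 and 48, and no filter on low counts gave 193 against Gcg and Ppy cells and a 5% limit 118, where the cause was not tested. The library as a replicate block gave 4672, 2219, 2250 and 53 calls and changed no count by 1.5 times. Alternatives chosen after seeing the data gave 4733, 2267, 2281 and 63 calls without Gcg only cells at 0.5% Ppy or more, and 4859, 2408, 2353 and 66 without those carrying 3 or more endothelial genes. Against insulin only cells the log2 difference of Scn9a was 0.30 with equal numbers of cells and that of Kcnh2 was -0.034 with cells thinned, both reversed in sign and the cause not tested. Leaving out 1 library leaves no residual degrees of freedom, so calls were not counted there.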
